A study of Mus musculus with 9 samples.

Results

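Monocyte-type cells were sought among the mouse cells of patient-derived orthotopic xenografts (PDOXs) of glioblastoma. They were single barcodes that held transcripts of blood monocytes (Mo) and of myeloid cells in general. They held no transcript of 6 chosen genes of resident microglia (Mg), border-associated macrophages (BAMs) or endothelium. Cells were chosen by their measured UMI counts: barcodes had to show 200 or more genes, no more than 30% of transcripts from mitochondria, at least 2 of the 5 genes Ly6c2, Plac8, Ms4a7, Ccr2 and Ifi204, at least 1 of the 4 genes Tyrobp, Ctss, Cybb and Lyz2, and no transcript of P2ry12, Tmem119, Siglech, Cd163, F13a1 or Cldn5. Unique molecular identifiers (UMIs) count single transcripts, and a gene that a file does not list counted as missing. Of 15391 cells that passed the 2 quality filters, 126 met this rule (0.819%), and 115 of them came from only 3 tumors, T101 (64 cells), P13 (40 cells) and P8 (11 cells). Since the rule reads expression, what it asked for is given as a description, and the results lie in the genes it did not read and in how the cells were spread over the samples.

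The 9 samples were the mouse fraction of single-cell Drop-seq libraries, in which beads in droplets capture the 3′ ends of transcripts. Nu-NB was the brain of a nude mouse that carried no tumor. The 7 untreated PDOXs (P13, P8, P3, T16, T101, T192 and T233) were human glioblastoma organoids implanted into the brain of nude mice and collected at the endpoint, and P3TMZ was the P3 tumor in a mouse given temozolomide (TMZ), an alkylating drug, by oral gavage. Each sample was a single library, so that the animal, the tumor and the library cannot be told apart. All hosts were female athymic nude mice, which lack T cells but keep their myeloid cells. T192 and T233 came from the same patient. Cells of Nu-NB and P8 were sorted by fluorescence (FACS), and the other libraries were enriched for mouse cells on magnetic columns (MACS), so that Nu-NB shares its sort with P8 alone.

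Monocytes leave the bone marrow, circulate in blood and enter inflamed or tumor-bearing tissue, where they take on macrophage features. Classical monocytes carry the surface protein Ly6C and the chemokine receptor Ccr2, which guides them along Ccl2, and tumor-associated macrophages (TAMs) in glioblastoma are a mixture of such incoming cells and of Mg, which seed the brain before birth. Mg are recognised by homeostatic genes such as P2ry12 and Tmem119, and BAMs of the meninges and vessels by Mrc1, Pf4 and Lyve1. MHC class II molecules present peptides to CD4+ T cells, and interferon-stimulated genes, among them the clustered Ifi200 genes for DNA-sensing proteins, answer type I and type II interferon.

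Each of the 5 marker genes was carried by some of the cells in P8, T101 and P13, but in different proportions. Ly6c2 (chr15:75108158-75111970 in GRCm38), which codes for a Ly6C surface protein, had a UMI in 4 of 11 cells of P8, 44 of 64 of T101 and 22 of 40 of P13. Plac8 (chr5:100553725-100572245), a monocyte gene of uncertain role, was seen in 8, 50 and 17 cells, and Ifi204 (chr1:173747293-173766943), an interferon-inducible DNA sensor, in 7, 44 and 18 cells. Ccr2 (chr9:124101950-124113557) was seen in 5, 11 and 31 cells, and Ms4a7 (chr19:11321039-11336146), a membrane protein of macrophages, in 3, 15 and 33 cells. The pan-myeloid genes were common, with Ctss, a lysosomal protease, in 10, 56 and 40 cells and Tyrobp, a signaling adapter, in 9, 30 and 36 cells. T101 cells thus leaned to Plac8, Ly6c2 and Ifi204, and P13 cells to Ms4a7 and Ccr2. The commonest set in T101 was Ly6c2, Plac8 and Ifi204 together (17 cells), while in P13 it was Ms4a7 with Ccr2 (10 cells), followed by all 5 markers (9 cells). A descent from blood monocytes was not measured here, so the cells are named after the rule. The 3′ ends of Ly6c2 and its neighbor Ly6c1, an endothelial gene, are alike: 75 of 251 50-base words in the last 300 bases of the Ly6c2 transcripts (29.9%) also occur in Ly6c1 and 0 in Ly6a, so that the split of reads between the pair is uncertain. The same caution may hold for the Ifi200, Ms4a and H2 families, whose genes are related to each other but whose likeness was not measured here.

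**Figure D1:**
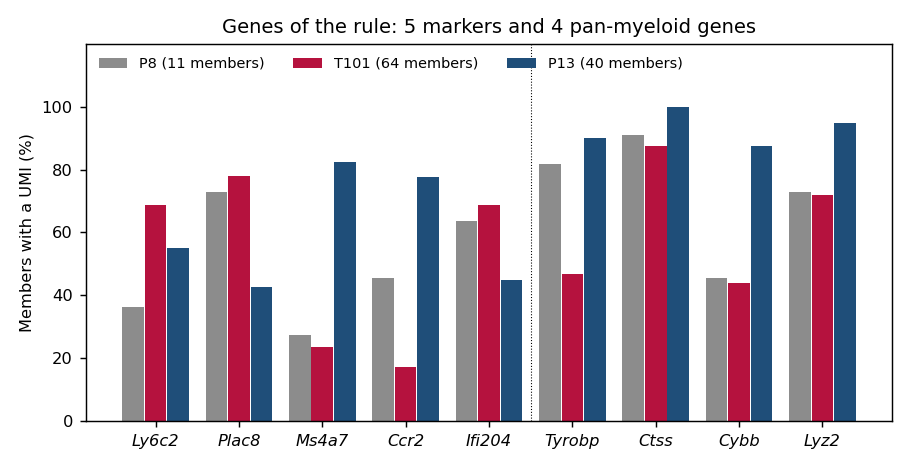
Share of monocyte-type cells (members; y axis, percent) with at least 1 UMI of each of the 5 marker genes and 4 pan-myeloid genes of the rule (x axis), with a bar for each of P8 (11 cells), T101 (64 cells) and P13 (40 cells). Plac8 and Ly6c2 are most common in T101 (78.1% and 68.8%), and Ms4a7 and Ccr2 in P13 (82.5% and 77.5%).

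The rule cuts through a range. Over all samples, 264 otherwise eligible cells held exactly 1 marker, 69 held exactly 2 and 57 held at least 3, and 316 cells with at least 2 markers were removed because they held an excluded gene, 249 of them P2ry12. Ms4a4c, a monocyte gene outside the rule, had 235 CPM (UMIs per 1e+06 UMIs of the summed cells) in T101 cells with 1 marker, 511 in cells with exactly 2 and 1533 in cells with at least 3. In P13 the same classes had 104, 327 and 1739 CPM. Cst3, a Mg gene, went the other way in T101, with 9639, 9097 and 4598 CPM. No barcode of a monocyte-type cell occurred in another library, although 14 barcodes of kept cells did. Of the 126 cells, 3 were among the 5% with the highest doublet scores of their sample.

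The monocyte-type share differed widely between tumors. Of all kept cells it was 0.161% in Nu-NB (3 of 1868), 0.450% in P8 (11 of 2447), 4.06% in T101 (64 of 1577), 0.157% in T192 (3 of 1905), 0.244% in P3 (2 of 818), 0.0941% in T16 (2 of 2126) and 1.37% in P13 (40 of 2916). In T233 it was 0 of 974, for which the upper limit, taken as 3 cells, is 0.308%, and the T233 file does not list Plac8. T101 and P13 together gave 82.5% of all monocyte-type cells.

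Among myeloid-type cells, those with UMIs of at least 2 of 8 general myeloid genes, the share was 14.9% in T101 (64 of 430, 95% exact binomial interval 11.7 to 18.6%), 3.10% in P13 (40 of 1289, 2.23 to 4.20%) and 1.38% in P8 (11 of 800, 0.688 to 2.45%). It was 0.390% in Nu-NB (3 of 770, 0.0804 to 1.13%) and at most 0.538% in the other 4 PDOXs. These intervals, like all others below, cover counting error only. The intervals of T101 and P13 lie above that of Nu-NB, and that of P8 overlaps it.

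With a single brain, the PDOXs as a group could not be told from Nu-NB or shown to differ from it. The share of all cells was 0.911% ± 1.46 (SD, n = 7) in the PDOXs against 0.161% in the single brain, a difference of 0.750 percentage points (two-sided exact permutation test, p = 0.625), and 4 of 7 PDOXs lay above Nu-NB. Of myeloid-type cells it was 2.92% ± 5.38 (SD, n = 7) against 0.390% (exact permutation p = 0.625), again with 4 of 7 above. With 1 brain there are 8 arrangements of the labels, so that this test cannot reach 0.05. Without T101 the difference was 0.226 percentage points for the share of all cells and 0.538 for that of myeloid-type cells, in place of 2.53.

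Cells of other kinds also held the markers. At least 2 of the 5 were held by 278 of 3451 PDOX cells with Mg markers (8.06%), up to 14.0% of them in P13 and 12.4% in T101, and these cells fail the whole rule by its excluded genes. The same was true of 108 of 3767 astrocyte-type cells (2.87%), of which 8 (0.212%) met the whole rule. Among 2674 endothelial-type cells of the PDOXs, 100 (3.74%, 95% exact binomial interval 3.05 to 4.53%) held at least 2 of the 5 markers and 7 (0.262%, 0.105 to 0.539%) met the whole rule when Cldn5 was allowed. For T101 and P13 this background was 1 of 267 (0.375%) and 4 of 863 cells (0.463%), and in P8 it was 0 of 180, with an interval of up to 2.03%. The P8 share of all kept cells, 0.450%, lies inside the pooled interval of this background, so that its 11 cells were not shown to exceed it and are described with that limit. This reading depends on the denominator. Of myeloid-type cells the P8 share was 1.38% (0.688 to 2.45%), above the pooled interval but below the limit of 2.03% in P8 itself. Of astrocyte-type cells in P8, 1 of 1086 (0.0921%, interval up to 0.512%) met the whole rule. The median depth of endothelial-type cells was 516 UMIs in T101, 1732 in P13 and 764.5 in P8, and that of monocyte-type cells 637.5, 1446 and 1132. Counts of 0 to 3 cells in the other samples were also at this level and were not read further. When every cell was thinned to 500 UMIs and shallower cells were left out, 30 cells met the rule in T101 (3.61%), 35 in P13 (1.22%), 6 in P8 and at most 3 in every other sample. Thinning also removes UMIs of the excluded genes, so that these are not all the same cells, with 3 in place of 2 in P3 and in T16. These counts depend on the excluded genes: without that condition there were 56 cells in T192 in place of 3 and 183 in P13 in place of 40.

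**Figure D2:**
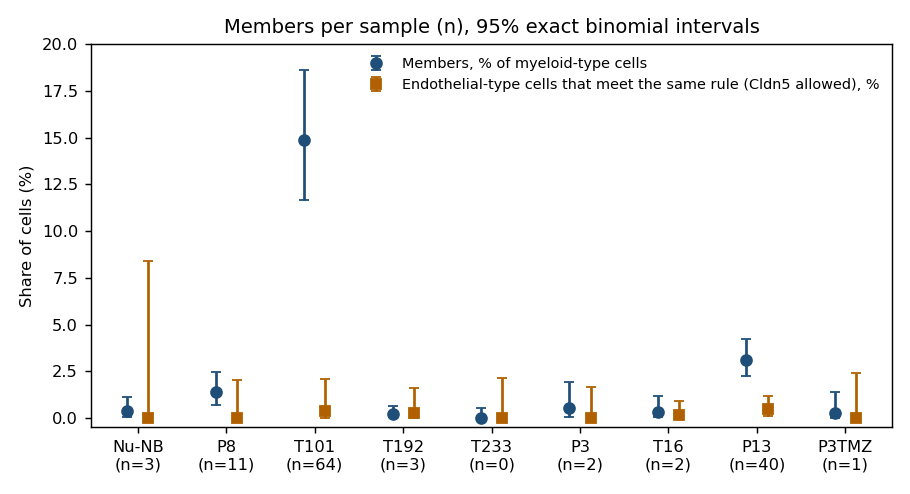
Monocyte-type cells (members, n) as a percentage of myeloid-type cells (y axis) in each of the 9 samples (x axis), with 95% exact binomial intervals, beside the percentage of endothelial-type cells that met the same rule with Cldn5 allowed. T101 (14.9%) and P13 (3.10%) stand above Nu-NB (0.390%), and T101 lies apart from the other 6 untreated PDOXs.

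The monocyte-type share of myeloid-type cells was also set against the endothelial-type share of non-myeloid cells in the 7 PDOXs. Pearson's r was -0.369 (exact permutation p = 0.231) and Spearman's rho -0.429 (exact permutation p = 0.354), and both had an adjusted p of 0.354 over 2 relations. Among the 6 PDOXs enriched on columns, that is without P8, r was -0.966 (exact permutation p = 0.0847) and rho -0.371 (exact permutation p = 0.497), while without T101 r was -0.197. Without T101 and P13, whose monocyte-type shares lay farthest from the median, r was -0.922 (n = 5, exact permutation p = 0.108) and rho -0.400 (exact permutation p = 0.517).

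For expression, UMIs were summed over the monocyte-type cells of each sample with at least 10 of them, which left P8 (16182 UMIs), T101 (46294) and P13 (76771). They were set beside the summed microglia-type cells of the same library, numbering 345, 84 and 567. These held at least 1 of the 4 pan-myeloid genes and at least 2 of P2ry12, Tmem119, Siglech, Gpr34 and Cx3cr1. They had to hold none of the 5 marker genes, Cd163, F13a1 or Cldn5. The 2 sets were thus chosen by opposite conditions on the markers. Ratios of genes expressed together with a marker may follow in part from that choice. Neither set is independent of the rule, so no test was made between them. Values below are CPM of the summed cells, and a difference is the log2 ratio of CPM + 10 within a library. Of 1731 genes with a mean of at least 100 CPM, 72 (4.16%) were higher by more than 1 on this scale in all 3 PDOXs. Another 58 (3.35%) were lower, with a median of 0.15 over all genes. When 1 tumor was left out, so that fewer had to agree, 107 to 178 genes were higher and 72 to 116 lower. Counts of lists without a tumor, given below, are to be read beside these. The Nu-NB brain, with 3 such cells, could not be compared in this way, and a lower level in summed cells cannot be told from fewer cells that express the gene.

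The 15 genes with the highest ratios included monocyte, S100 and Ifi200 genes and others on none of these lists. Ms4a4c (chr19:11404770-11427246), a membrane protein of the Ms4a family, had 433 CPM in monocyte-type cells of P8 (95% exact Poisson interval 174 to 891), 929 in T101 (672 to 1251) and 951 in P13 (745 to 1196), against 33.1, 12.8 and 16.2 CPM in microglia-type cells, a median log2 ratio of 5.20. Plbd1, a phospholipase-like protein of granulocytes and monocytes, had 1174, 302 and 91.2 CPM against 1.504, 12.8 and 6.34. Klrk1, an activating receptor of NK cells that some myeloid cells also express, had 185, 346 and 78.2 CPM against 7.52, 25.5 and 2.11. Gpr141, an orphan receptor, had 433, 173 and 143 CPM against 0, 0 and 0.704, and Amica1 (also Jaml), a junction protein of migrating leukocytes, had 742, 324 and 65.1 CPM against 4.51, 25.5 and 9.15. Plbd1, Klrk1, Gpr141 and Amica1 were above the microglia-type level in all 3 tumors, and each was lowest in P13. Fam26f had 247, 324 and 104 CPM against 7.52, 12.8 and 8.45, but its ratio reversed to -0.78 when cells were thinned to 500 UMIs.

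Among the 15 genes with the lowest ratios were the homeostatic Mg genes Hpgds, Golm1, Gpr34 and Sparc. The complement genes C1qa and C1qb were also there, beside genes on neither kind of list. Gpr34 was one of the genes that defined microglia-type cells. Plxdc2, a transmembrane protein with the lowest ratio of all, had 0, 0 and 65.1 CPM in the monocyte-type cells of P8, T101 and P13 against 842, 561 and 317 CPM in microglia-type cells. C1qa, a subunit of complement C1q that resident macrophages secrete, had 433, 216 and 677 CPM against 2735, 2284 and 1485, and C1qb had 371, 108 and 703 CPM against 2500.5, 2922 and 1578. Both subunits were closest to the microglia-type level in P13.

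Monocyte genes outside the rule were higher in most cases. Of 16 such genes compared, 10 were higher in all 3 PDOXs and none was lower, with a median log2 ratio of 2.45. Srgn, the core protein of a granule proteoglycan, had 1545, 2398 and 1615 CPM in P8, T101 and P13 against 371, 447 and 263 CPM in microglia-type cells. Ms4a6c had 927, 1015 and 1485 CPM against 406, 293 and 142. Tgfbi, an extracellular matrix protein induced by TGF-β, had 61.8, 281 and 1042 CPM against 19.5, 25.5 and 36.6, and Samhd1, a nucleotide hydrolase that restricts viruses, had 989, 994 and 313 CPM against 111, 242 and 47.2. The tumors ranked differently by gene among the monocyte-type cells, with Tgfbi and Ms4a6c highest in P13 and Srgn in T101. Other genes of classical monocytes were sparse: Chil3 had 247, 21.6 and 39.1 CPM and Vcan 0, 43.2 and 52.1 CPM. Genes of non-classical monocytes together gave 2595 CPM in P8 against 159 in microglia-type cells, but 367 against 268 in T101 and 287 against 106 in P13. They were highest in P8, where Cd36 had 556 CPM and Treml4 309. The P8 values rest on 11 cells with 16182 UMIs, of which 3 held at least 2 dendritic cell markers and 2 at least 2 neutrophil markers. Only 1 gene of the list passed the filter on the mean, and it was not higher in all 3 PDOXs.

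A list of S100, galectin and annexin genes with some other genes of the cytoskeleton and membrane (among them Vim, Emp3 and Tmsb10) was also higher in part. Of 14 compared, 8 were higher in all 3 PDOXs (S100a4, S100a10, S100a11, Lgals3, Anxa2, Vim, Emp3 and Tmsb10) and none was lower (median log2 ratio 1.47). Against all other myeloid-type cells 3 of 15 were higher, and without the cells that carried DC markers 4 of 14. S100a4, a calcium-binding protein of motile cells, had 185, 432 and 469 CPM in P8, T101 and P13 against 4.51, 25.5 and 14.8 CPM. Lgals3, or galectin-3, had 618, 1231 and 534 CPM against 88.7, 115 and 59.8, and the intermediate filament Vim had 371, 1102 and 1446 CPM against 67.7, 306 and 557. S100a6 was counted in all 3 tumors at 521 to 691 CPM, and its microglia-type level was 16.5 CPM in P8 and 255 and 268 CPM in T101 and P13. Anxa2 counted as higher, yet its ratio was -0.43 after thinning to 500 UMIs.

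**Figure D3:**
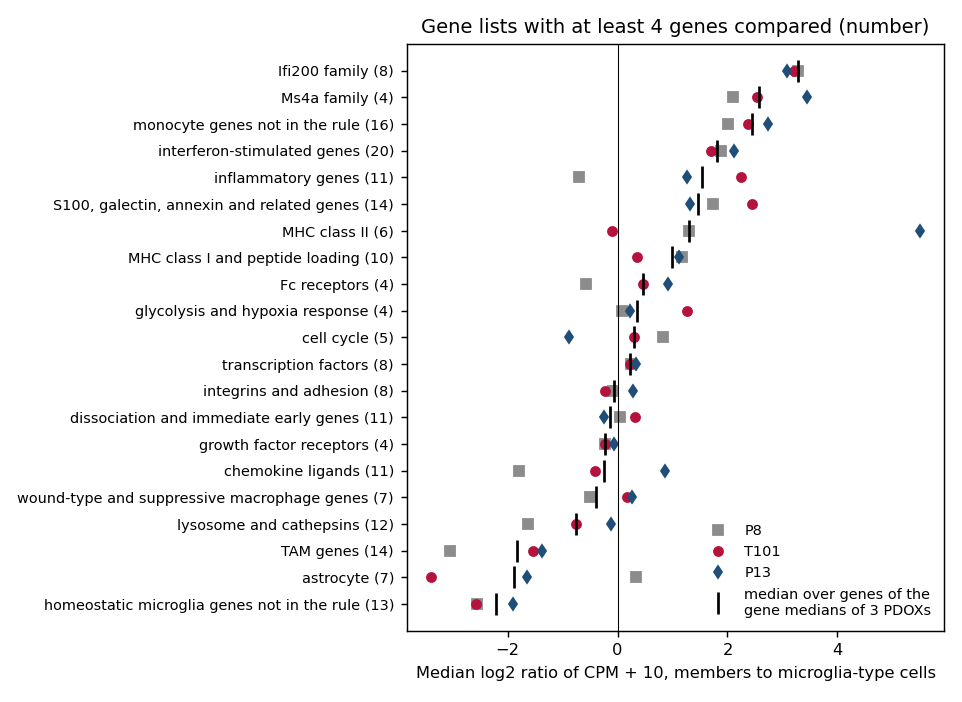
Median log2 ratio of CPM + 10, monocyte-type cells (members) to microglia-type cells (x axis), for each gene list with at least 4 genes compared (y axis, number of genes in brackets), with a point for each of P8, T101 and P13 and a black bar at the median of the list over the 3. Ifi200 genes (3.28), Ms4a genes (2.58) and monocyte genes (2.45) lie highest, Mg genes (-2.21) and TAM genes (-1.83) are among the lowest, and MHC class II genes spread from -0.11 in T101 to 5.50 in P13.

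The Ifi200 genes lie side by side on chromosome 1, and one of them (Ifi204) was in the rule. They had the highest median among lists with at least 4 genes compared. Microglia-type cells had to lack Ifi204, so this contrast is not independent of the choice of cells. Of 8 other members compared, 7 were higher in all 3 PDOXs, Aim2 was not, and none was lower (median log2 ratio 3.28). Promoter windows of the family are shown because 5 of the 7 higher genes hold the same motif there, as do Ifi208 and Ifi214, which were not counted as higher. The windows are RefSeq sequence of GRCm38.p6 on the strand of the gene, in lower case with the interferon-stimulated response element (ISRE, GAAANNGAAA, searched on both strands) in capitals:

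Ifi211 (chr1:173913054-173913103, minus strand, ISRE 37 bases before the start): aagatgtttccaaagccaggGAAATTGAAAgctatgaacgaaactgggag

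Ifi207 (chr1:173741821-173741870, minus strand, 41 bases before the start): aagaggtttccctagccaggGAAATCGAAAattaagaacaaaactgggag

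Ifi205 (chr1:174031860-174031909, minus strand, 134 bases before the start): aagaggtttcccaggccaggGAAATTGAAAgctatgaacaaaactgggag

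Ifi203 (chr1:173942498-173942547, minus strand, 35 bases before the start): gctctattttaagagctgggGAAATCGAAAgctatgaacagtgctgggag

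Mndal (chr1:173880194-173880243, minus strand, 36 bases before the start): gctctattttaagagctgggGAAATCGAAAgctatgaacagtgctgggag

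Ifi208 (chr1:173673587-173673636, plus strand, 58 bases before the start): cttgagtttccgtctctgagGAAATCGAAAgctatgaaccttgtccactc

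Ifi214 (chr1:173536007-173536056, minus strand, 79 bases before the start): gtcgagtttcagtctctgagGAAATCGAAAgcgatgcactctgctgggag

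The windows of Ifi203 and Mndal are identical, and Ifi213 has the same window as Ifi208. In the 250 bases before the start, 8 of 11 Ifi200 genes held the motif in at least 1 promoter, as did 936 of 27025 mouse genes (3.46%). The 3 without it were Ifi209, Ifi202b and Aim2, and none of 14 homeostatic Mg genes held it. A match is a run of letters and says nothing of binding.

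Ifi211 (chr1:173896345-173913046) had 742 CPM in P8 (95% exact Poisson interval 383 to 1295), 1209.7 in T101 (914 to 1571) and 547 in P13 (394 to 739), against 34.6, 115 and 29.6 CPM in microglia-type cells. Ifi207 had 679.8, 756 and 443 CPM against 57.1, 76.6 and 31.7, and Ifi202b had 1359.5, 2829.7 and 1641 CPM against 403, 702 and 197. In each of these genes the lowest of the 3 monocyte-type values lay above the highest microglia-type value. Ifi205 had 124, 605 and 78.2 CPM against 4.51, 0 and 1.41, and Ifi208 was counted in T101 (259 CPM) and P13 (26.1 CPM) and not in P8. Aim2, which senses DNA in the cytosol and activates the inflammasome, had 742, 194 and 143 CPM against 275, 268 and 130.2. Ifi200 transcripts were in 10 of 11 cells of P8, 59 of 64 of T101 and 33 of 40 of P13. After thinning to 500 UMIs, 4 genes of the family were past the threshold in place of 7.

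Interferon-stimulated genes outside the Ifi200 family showed the same direction in most members of the list. Of 20 compared, 13 were higher in all 3 PDOXs and none was lower, with a median log2 ratio of 1.81. Ifi204, on which both kinds of cell were chosen, is itself interferon-inducible, so that the choice bears on this list too. Ifitm3, a membrane protein that blocks viral entry, had 1854 CPM in P8, 2117 in T101 and 1667 in P13 against 88.7, 319 and 393 CPM in microglia-type cells. Isg15, a ubiquitin-like modifier, had 247, 950.4 and 443 CPM against 15.04, 293 and 88.7, and Irf7, the regulator of the interferon response, had 61.8, 367 and 326 CPM against 16.5, 153 and 38.7. Ifitm3 differed little between the monocyte-type cells of the tumors and more between microglia-type cells, while Isg15 was highest in T101 in both kinds of cell. Rsad2, or viperin, had 0, 497 and 873 CPM against 7.52, 0 and 22.5, from 8 cells of T101 and 8 cells of P13, and so rested on a minority of cells. Per cell, the list made up a median of 0.83% of UMIs in P8, 1.63% in T101 and 0.88% in P13, with a highest value of 6.42% in T101, against medians of 0.16, 0.60 and 0.24% in microglia-type cells. When cells were thinned to 500 UMIs, 7 genes of the list counted as higher in place of 13.

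MHC class II transcripts were seen in most monocyte-type cells, but their level relative to microglia-type cells depended on the tumor. How many cells would hold such transcripts from free RNA of other cells was not tested. Promoter windows of H2-Aa (chr17:34282744-34287823) and H2-Eb1 (chr17:34305867-34316674), which code for chains of the class II molecule, are shown because the values of these genes turn on the tumor. They are RefSeq sequence of GRCm38.p6 on the strand of the gene, with the Y box (CTGATTGG), a letter run found in MHC promoters, in capitals:

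H2-Aa (chr17:34287827-34287914, minus strand, 51 bases before the start): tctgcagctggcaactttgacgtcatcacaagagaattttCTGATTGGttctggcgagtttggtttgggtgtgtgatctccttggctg

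H2-Eb1 (chr17:34305765-34305852, plus strand, 62 bases before the start): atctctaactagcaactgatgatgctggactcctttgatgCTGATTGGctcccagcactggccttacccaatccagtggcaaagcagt

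On either strand, 3 of 7 MHC class II genes, 5 of 11 MHC class I and peptide loading genes and 1198 of 27025 mouse genes (4.43%) held the Y box, and none of the 11 Ifi200 genes did.

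H2-Aa had 3213 CPM in the monocyte-type cells of P8 (95% exact Poisson interval 2400.0 to 4214), 5703 in T101 (5035 to 6434) and 4325 in P13 (3872 to 4816). In microglia-type cells it had 1649 CPM in P8, 6201 in T101 (5662 to 6778) and 38.7 in P13 (29.2 to 50.4). The monocyte-type levels thus ran from 3213 to 5703 CPM, while those of microglia-type cells ran from 38.7 CPM in P13 to the level of monocyte-type cells in T101. H2-Ab1 repeated this, with 3152, 7755 and 3804 CPM against 1258, 8255 and 44.4. Cd74, the invariant chain that guides class II molecules to endosomes, had 9826, 4752 and 5210.3 CPM against 6858, 7975 and 79.6, and in T101 it was lower in monocyte-type cells. Of 6 class II genes compared, 0 were past the threshold in all 3 PDOXs, and the median log2 ratio was 1.31 in P8, -0.11 in T101 and 5.50 in P13. Without T101, 4 of 6 were higher. The list median was 0.33 without the cells that carried DC markers, described next.

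At least 1 of 4 class II genes was seen in 9 cells of P8 (81.8%), 51 of T101 (79.7%) and 37 of P13 (92.5%), and in 82.9, 91.7 and 18.3% of microglia-type cells of the same libraries. Class II transcripts took between 0 and 4.44% of the UMIs of a monocyte-type cell in P8, between 0 and 6.70% in T101 and between 0 and 7.77% in P13, so the cells of a tumor differed widely among themselves. In P8, 3 cells with at least 2 dendritic cell (DC) markers held 69.2% of the class II UMIs (200 of 289), and in T101 5 such cells held 16.4%. Of all UMIs of monocyte-type cells, they held 5604 of 16182 in P8 and 5592 of 46294 in T101. P13 had no such cells. Ciita, the master regulator of class II genes, had 0, 64.8 and 39.1 CPM.

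**Figure D4:**
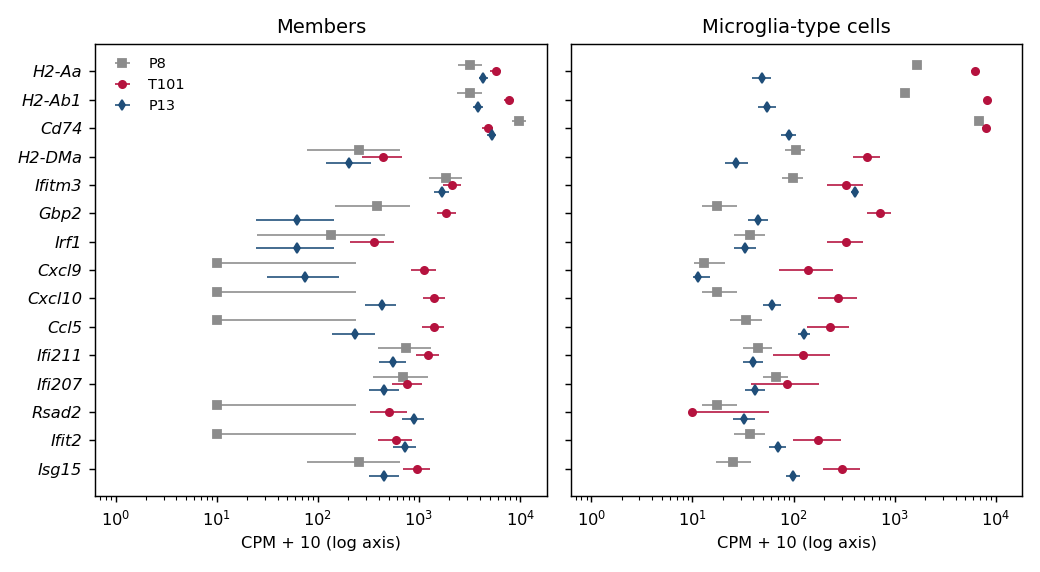
CPM + 10 on a log axis (x) of 15 MHC class II, interferon-stimulated, Ifi200 and chemokine genes (y), in monocyte-type cells (left, named members) and microglia-type cells (right) of P8, T101 and P13, with 95% exact Poisson intervals. H2-Aa is at 38.7 CPM in microglia-type cells of P13 and at 4325 CPM in its monocyte-type cells, whereas in T101 the values are 6201 and 5703 CPM.

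MHC class I genes differed less. Of 10 compared, 0 were past the threshold in all 3 PDOXs (median log2 ratio 0.98). Without T101, 3 of 9 were higher, and without P13 the median was 0.56. B2m, the light chain of class I molecules, had 6179.7, 11837 and 9027 CPM in P8, T101 and P13 against 5532, 10501 and 4285 CPM, and H2-K1, a heavy chain, had 3275, 3759 and 2058 CPM against 1275, 3636 and 1250.3. As with class II, the 2 kinds of cell lay closest in T101.

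Cytokine and chemokine transcripts differed between the tumors. Of 11 inflammatory genes compared, Nampt and Pim1 were higher in all 3 PDOXs and none was lower (median log2 ratio 1.54). Without T101 the median was -0.02 with none higher, and without P8 6 genes were higher. Over all genes the count of higher genes also rose, to between 107 and 178, when 1 tumor was left out. Il1b, the inflammasome cytokine, had 124, 1728 and 1120.2 CPM in P8, T101 and P13 against 207, 332 and 117.6, seen in 1 of 11, 34 of 64 and 19 of 40 monocyte-type cells. It exceeded the microglia-type level in T101 and P13 but not in P8. Of 11 chemokine ligands, Ccl4 and Cxcl13 were lower in all 3, and the median was -0.24, or 0.42 when sums of 0 UMIs were set to 3, so that it has no fixed sign. Without P8, 4 ligands were higher. Cxcl13, which attracts B cells, had 61.8, 518 and 221 CPM against 836, 2246 and 2163. Cxcl9 and Cxcl10, ligands of the T cell receptor Cxcr3, had 1102 and 1404 CPM in T101, 65.1 and 417 in P13 and 0 UMIs in P8, where the sum of 11 cells is shallow. Among chemokine receptors outside the rule, Cx3cr1, the fractalkine receptor, was lower, with 803, 216 and 690.4 CPM against 2782, 2029 and 2084. It was one of the genes that defined microglia-type cells, so that its direction was favored by that choice.

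Genes of a TAM list, drawn largely from the study's own account of these samples and so not independent of them, were in no case higher in all 3 tumors. Of 14 compared, 5 were lower in all 3 PDOXs (Cst7, Ctsd, Lpl, Cxcl13 and Ccl4) and none was higher (median log2 ratio -1.83), with 9 lower without P13 and 1 higher without P8. Ctsd, a lysosomal protease, had 1483, 756 and 1303 CPM in P8, T101 and P13 against 7952, 5793 and 4671. Apoe, the lipid carrier, had 13348, 6069.9 and 13443 CPM against 41628, 16204 and 5674, so that it was lower than in microglia-type cells in P8 and T101 and higher in P13. Trem2, a lipid receptor, had 433, 86.4 and 313 CPM against 1836, 829.4 and 621, and Spp1, or osteopontin, 1236, 950.4 and 664 CPM against 9122, 1238 and 1021. In P8 both Spp1 and Apoe were far below the microglia-type level. Clec7a, the β-glucan receptor, had 2808 CPM in T101 and 951 in P13 against 778 and 297 and is not listed for P8. Nos2, the inducible nitric oxide synthase, had 1 UMI, in T101.

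Homeostatic Mg genes beyond those of the rule were lower, and the rule had left out cells with P2ry12, Tmem119 or Siglech. Gpr34 and Cx3cr1, which are among the genes counted as lower, were part of the definition of microglia-type cells. Their direction was thus favored by that choice. Of 13 compared, 10 were lower in all 3 PDOXs and none was higher (median log2 ratio -2.21). Against all other myeloid-type cells 5 of 12 were lower (median -1.75). Csf1r, the receptor of a macrophage growth factor, had 679.8, 281 and 287 CPM in P8, T101 and P13 against 1399.8, 1301 and 833, and Cst3, a protease inhibitor, 12668, 7258 and 10108 CPM against 28929, 36606 and 42004. Sall1, the transcription factor of Mg identity, had 1 UMI in all, in P13, against 63.8 to 87.2 CPM in microglia-type cells. Csf1r and Cst3 were thus lower but not missing, and T101 had the lowest levels. Lysosomal genes other than Ctsd went the same way in part, with Ctsl and Lgmn lower among 12 compared (median -0.75). Without P13 this median was -1.28 with 4 lower, and without P8 it was -0.37 with 1 higher and 2 lower. Transcription factors (8 genes, median 0.22), integrins (8, -0.07), Fc receptors (4, 0.47) and glycolytic genes (4, 0.36) had none past the threshold in all 3 tumors. These medians rest on single tumors in part: without T101 that of transcription factors was 0.92, and without P13 it was 0.49, with 1 higher and 2 lower. For Fc receptors it was -0.44 without P13, and without P8 2 of 4 were higher, while without P13 glycolytic genes had 1 higher and a median of 0.80. Runx3, a transcription factor of leukocytes, was counted in 7 cells of T101 (151 CPM) and 9 of P13 (182 CPM), against 12.8 and 2.82 CPM.

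BAMs could be set beside monocyte-type cells in P13 only, where 19 cells with 24933 UMIs held at least 2 of 6 BAM genes (Cd163, F13a1, Mrc1, Cbr2, Lyve1 and Pf4). Of these, 1 held neither Cd163 nor F13a1 and was also monocyte-type. Of 1870 genes compared, 254 (13.6%) were higher in monocyte-type cells and 339 (18.1%) lower, with a median log2 ratio of -0.04. All 12 genes of the BAM list compared were lower (median -3.82, or -3.10 with sums of 0 set to 3 UMIs), and the definition reads some of them. Mrc1, the mannose receptor, had 91.2 CPM in monocyte-type cells (95% exact Poisson interval 36.7 to 188) against 4211 in BAM-type cells (3444 to 5098), Pf4, a platelet and macrophage chemokine, 65.1 against 3048, and Lyve1, a hyaluronan receptor, 0 UMIs against 241 CPM. In P8 and T101, Mrc1 and Lyve1 had 0 UMIs in monocyte-type cells. Class II genes were higher than in BAM-type cells in 4 of 5 cases (median 1.69), monocyte genes in 9 of 17 (median 1.58, or 0.91 with sums of 0 set to 3 UMIs), interferon-stimulated genes in 9 of 22 with 1 lower (median 0.81) and Ifi200 genes in 2 of 6 (median 0.84). Rsad2 had 67 UMIs in monocyte-type and 0 in BAM-type cells, but 8 of 40 cells held them. When cells were thinned to 500 UMIs, 467 genes counted as higher and 780 as lower.

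Between the tumors with the most cells, monocyte-type cells of T101 had 301 genes (16.4% of 1837) higher by more than 1 on the log2 scale than those of P13 and 208 (11.3%) lower, with 1 library on either side and so no test. Several guanylate-binding proteins and immunity-related GTPases, which interferon-γ induces and which attack the vacuoles of intracellular microbes, were among the 15 genes with the highest ratios, where they were picked out after their values were seen. Gbp2 (chr3:142620602-142638008) had 1858 CPM in T101 (95% exact Poisson interval 1486 to 2294) and 52.1 in P13 (14.2 to 133), with 371 in P8. Gbp7 had 886 against 52.1 CPM, Gbp5 626 against 52.1, and Iigp1 1166 against 91.2. Irf1, an interferon-induced transcription factor, had 346 against 52.1 CPM. Of 26 interferon-stimulated genes 8 were higher in T101 and 2 lower (Bst2 and Rtp4), with a median of 0.49, and of 10 Ifi200 genes 4 were higher (median 0.88). The same direction was seen in the microglia-type cells of the pair, where 10 of 14 interferon-stimulated genes were higher in T101 (median 1.33) and Gbp2 had 702 against 34.5 CPM, beside all-gene counts of 175 of 1698 genes higher (10.3%) and 151 lower (8.89%).

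Class II genes differed between T101 and P13 more in microglia-type than in monocyte-type cells. In microglia-type cells, 6 of 6 were higher in T101, with a median log2 ratio of 5.39. In monocyte-type cells, H2-Ab1, H2-DMa and H2-DMb1 were higher and H2-Eb1 lower (median 0.71). Chemokine genes split by tumor: Ccl5, Ccl6, Cxcl9, Cxcl10 and Cxcl13 were higher in T101, and Ccl2 and Ccl8 in P13, at 43.2 against 339 CPM and 108 against 365 CPM, the latter from 1 and 2 cells. The highest ratio of all, Ftl1 with 4579 CPM in T101 against 104 in P13, belongs to a gene with many near-identical copies and is uncertain. Among the lowest, Sparcl1 had 3 UMIs in T101 against 49 in P13, Slc1a3 0 against 20, Mgp 0 against 43 and Rgs5 1 against 43, and these are genes of astrocytes and vessels.

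Within T101, 15 cells held Ms4a7 and 49 did not. Cells without it had to carry at least 2 of the other 4 markers and cells with it only 1, so the rule bears on this split, and the values are a description of genes picked after they were seen. Apoe had 15491 CPM in cells with Ms4a7 and 2551 in those without, Spp1 1668 and 682, and Ms4a6c 1827 and 712. Samhd1 went the other way, with 397 against 1216 CPM, as did S100a6 (318 against 831) and Rsad2 (159 against 623). Myeloid genes had no single direction here, since Clec7a (2065 against 3086 CPM) and the Fc receptor Fcgr3 (159 against 534) were lower in the cells with Ms4a7. In P13 the 33 cells with Ms4a7 were again higher in Apoe (14668 against 4220.3 CPM in the 7 without), in Ctsd (1446 against 222) and in Trem2 (354 against 0), and lower in S100a10 (88.5 against 1555) and S100a4 (309.9 against 1666). In T101 S100 and galectin genes had no single direction, with S100a4 at 318 against 475 CPM (4 and 16 UMIs), S100a10 at 556 against 415 and Lgals3 at 1907 against 979.

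Markers of other cell types were present in some of the cells. At least 2 DC markers were held by 3 of 11 cells in P8, 5 of 64 in T101 and 0 of 40 in P13. In P8, 2 cells held all 164 UMIs of the neutrophil markers, among them 100 of S100a8 and 38 of S100a9. At least 2 T and NK cell markers were in 7 cells of T101, and at least 2 B cell markers in 4 cells of T101 and 4 of P13. Over all 64 monocyte-type cells of T101, T and NK cell markers had 47 UMIs over 13 genes, of which Klrk1 had 16. Astrocyte markers were in 1, 1 and 12 cells (30% in P13), and genes of the BAM list outside the rule in 2, 4 and 19 cells (47.5% in P13), in each case at least 2 per cell. In microglia-type cells of P8, T101 and P13 the shares were 17.1, 19.0 and 57.7% for astrocyte markers. For the BAM list they were 38.3, 10.7 and 56.8%, above the monocyte-type shares. At least 2 homeostatic Mg genes outside the rule were in 9 cells of P8 (81.8%), 29 of T101 (45.3%) and 38 of P13 (95%). The microglia-type shares were 99.7, 100 and 100%. Leaving out the 17 cells with lymphoid, B cell or neutrophil markers changed the counts against microglia-type cells from 72 higher and 58 lower to 81 and 69, of which 61 and 49 were shared. Astrocyte markers summed to 1978, 216 and 1928 CPM in monocyte-type cells of P8, T101 and P13 and to 798, 2769 and 7247 CPM in microglia-type cells, and mural cell markers to 0, 43.2 and 716 CPM against 45.1, 242 and 1997. These lists were higher in P13 than in T101, as were Sparcl1, Slc1a3, Mgp and Rgs5, and their part in that difference was not tested. UMIs on pseudogene symbols made up 0.309, 8.11 and 6.94% in monocyte-type and 0.231, 5.20 and 4.27% in microglia-type cells, with P8 apart from the others. The P8 file uses an older release of gene symbols, whose part in this was not tested.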

How the data were processed

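Mouse cells of 9 Drop-seq libraries were analysed. According to the methods and processing notes, the authors converted reads with bcl2fastq, aligned them with STAR to a human and mouse reference (mouse mm10) and deposited raw UMI counts per gene and cell barcode, without normalization. The values were whole numbers of 0 or more. Total UMIs were between 1294068 and 8410580 per library, and the median per kept cell was between 521 and 1303, which limits the precision for genes of low expression. The libraries use different releases of gene symbols, and 10 listed genes were joined across them.

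Cells were classed by the genes stated, with no clustering. Sums per sample and type were scaled to CPM, with exact Poisson and binomial intervals at 95%, a pseudocount of 10 CPM, a mean of at least 100 CPM in the genes compared and a log2 threshold of 1. Shares were compared by exact permutation tests. No filter on doublets was applied to the main values, and scrublet scores served an alternative. The tests across genes that had been planned between PDOXs and Nu-NB could not be run, because Nu-NB had 3 monocyte-type cells where 10 were asked for. The genes named are those of 33 fixed lists, by role, and the 15 with the highest and lowest median ratio past the threshold in every PDOX and at 50 CPM or more in the higher set. Mitochondrial, ribosomal and pseudogene symbols were counted and not named, and genes of T101 against P13 and of the Ms4a7 split were picked from the largest ratios after their values were seen. The rule for the cells and the lists were chosen with earlier results of these data known. Promoters are those of RefSeq and gene positions those of GENCODE vM21 on GRCm38. Python 3.11.15, numpy 2.4.6, scipy 1.17.1, pandas 2.3.3 and scanpy 1.11.5 were used, and the steps were tested on simulated data. Alternatives were a thinning to 500 UMIs, other filters, pseudocounts, markers and comparison cells, and leaving out each PDOX. Human tumor cells were not analysed here. Results of some single genes are not reported here, although counts over lists and over all genes keep them.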

Additional observations from a re-analysis of the deposited data

Results flagged for a closer look

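The share of monocyte-type cells in T101 stood apart from the other 6 untreated PDOXs. It was 4.06% of all kept cells, with a gap to P13 that took 0.662 of the range over the 7 tumors, and 14.9% of myeloid-type cells, with a gap of 0.792 of the range, where Dixon's test has a critical value of 0.568. Chance alone passes this critical value in about 1 of 20 groups drawn from a normal distribution. The shares were not shown to follow one.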

How the results depend on the processing

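The counts of genes past the threshold against microglia-type cells, 72 higher and 58 lower, depended on the filters and on the tumors that had to share a change. They were 155 and 575 with no filter on low values, 155 and 418 with a mean of 10 CPM, and 109 and 102 in cells with at least 3 of 5 markers. Leaving out 1 tumor at a time gave 107 to 178 higher and 72 to 116 lower, the lowest without T101 and the highest without P13, since fewer tumors then had to agree. In P13 against BAM-type cells the counts were 467 and 780 after thinning to 500 UMIs, in place of 254 and 339, and the genes lower in T101 than in P13 members of the monocyte-type set were 399 after thinning and 336 with at least 3 markers, in place of 208. The share of endothelial-type cells with at least 2 markers (the background of the gate before the other conditions of the rule, and not the 0.262% that met the whole rule) was 0.201% after thinning, in place of 3.74%. Anxa2 and Fam26f reversed after thinning, to -0.43 and -0.78. The cause of these changes was not tested. The difference in the share of cells between PDOXs and Nu-NB kept its direction, with 0.226 to 0.902 percentage points when 1 PDOX was left out, and no p under 0.375. Of 76 named genes, the ratio moved by more than the spread between tumors in 31 with at least 3 markers, in 24 after thinning (beside the 2 that reversed), in 24 against all other myeloid-type cells and in 16 with a pseudocount of 1 CPM. No paired analysis was possible because Nu-NB is 1 library, so that the groups share only 1 replicate number, given in accession order. The planned count models of PDOXs against Nu-NB were not run, since Nu-NB had 3 monocyte-type cells, and neither were their alternatives.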

Other observations

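Outside P8, T101 and P13, 11 cells met the rule. The 3 cells of Nu-NB had 417 to 1217 UMIs and carried Plac8 with Ccr2, Ms4a7 with Ifi204, and Ccr2 with Ifi204. The 2 cells of P3 carried Ly6c2 with Ccr2 and Ly6c2 with Ms4a7, and held 74 and 35 UMIs of MHC class II genes. After TMZ, 1 of 760 cells of P3TMZ met the rule, against 2 of 818 in untreated P3, and with 1 library on either side no difference was detectable at this depth.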
